A study of Mus musculus with 8 samples.

Results

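The mesothelium is the flat epithelial sheet that covers the lung and lines the chest cavity, and 9 genes that mark it were followed in whole lungs of newborn mice. They were Msln, Wt1, Upk3b, Upk1b, Lrrn4, Krt19, Gpm6a, Bnc1 and Nkain4, chosen by name as mesothelial markers with earlier results of these data known. All 9 were measured, among 20839 named genes, and all 9 were among the 17234 genes tested. The RNA came from C57Bl/6J pups that breathed 85% oxygen between postnatal days 0 and 3, a model of lung injury by high oxygen. Of the 8 samples, 4 were labelled as carrying 1 mutant copy of the growth factor gene Fgf10 (Fgf10+/-) and 4 as wild-type, and each sample was hybridised to its own Agilent array with the dye Cy3. Every pup of both groups received the high oxygen, so nothing here compares oxygen with room air. The titles call the Fgf10+/- samples "TG", and the labels give neither the allele nor the sex of the pups. The litter of each pup is not stated, and p-values therefore cover only the spread between these 8 samples.

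In the embryonic lung the mesothelium is a signalling layer: it secretes growth factors to the mesenchyme beneath it, and some of its cells enter the lung and become fibroblasts or smooth muscle cells. In the newborn it forms the outer covering of each lobe and makes up a small share of the cells of a whole lung, so its transcripts are diluted by those of all other cells. The same kind of sheet covers the heart, the liver and the inner wall of the chest. No single marker is private to it. Krt19 is also made by airway epithelium, uroplakins by the bladder lining, Gpm6a by neurons, and Bnc1 by squamous epithelium.

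All values are log2 intensities, on which a difference of 1.00 is a doubling, and differences are given as Fgf10+/- minus wild-type. Intensities of different genes came from different probes and were not ranked against each other. The 8 arrays correlated with one another at 0.974 to 0.987 over the features used, and pairs within a group were no closer (0.975 to 0.985). Several lung markers were bright on every array: surfactant protein C (Sftpc) read 15.98 to 15.99, the club cell secretoglobin Scgb1a1 15.94 to 15.97 and the lung transcription factor Nkx2-1 10.26 to 11.02. The highest value of any feature was 15.99, so Sftpc and Scgb1a1 lay at or near the top of the scale and their small spread says little. The markers Foxj1 (8.68 to 9.30) and Pecam1 (7.51 to 8.28) were less bright. Fgf10 itself averaged 8.04 in the Fgf10+/- arrays and 7.81 in the wild-type arrays (difference 0.23, two-sided exact permutation p = 0.2), so its level does not check the labels.

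No mesothelial marker passed the test for a difference between the genotypes. At a Benjamini-Hochberg adjusted p below 0.05 in limma, 0 of the 9 were called, against 0.795% of all tested genes (137 of 17234, 39 higher and 98 lower). At an unadjusted p below 0.05 only Msln passed, 1 of 9 against 11.2% of all genes, and the groups overlapped in all 9, where 6.64% of all genes had groups that did not overlap. The sign was negative in 8 of the 9, and their median difference was -0.58, beside 0.01 over all tested genes. That median is the value of Bnc1, a dim gene whose mean passed the filter on low intensity only through the wild-type arrays. Over the other 8 markers the median was -0.60, with 7 negative and 1 positive. Wild-type array 4 held the highest value of 7 of the 9 markers. Without that array the median of the 9 was -0.20, with 7 negative and 2 positive differences and again none called. Leaving out the array that was highest for those 7 moves their differences upward by construction. No direction is read from such values here or below. In whole-lung RNA, fewer mesothelial cells and less RNA per mesothelial cell cannot be told apart.

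**Figure D1:**
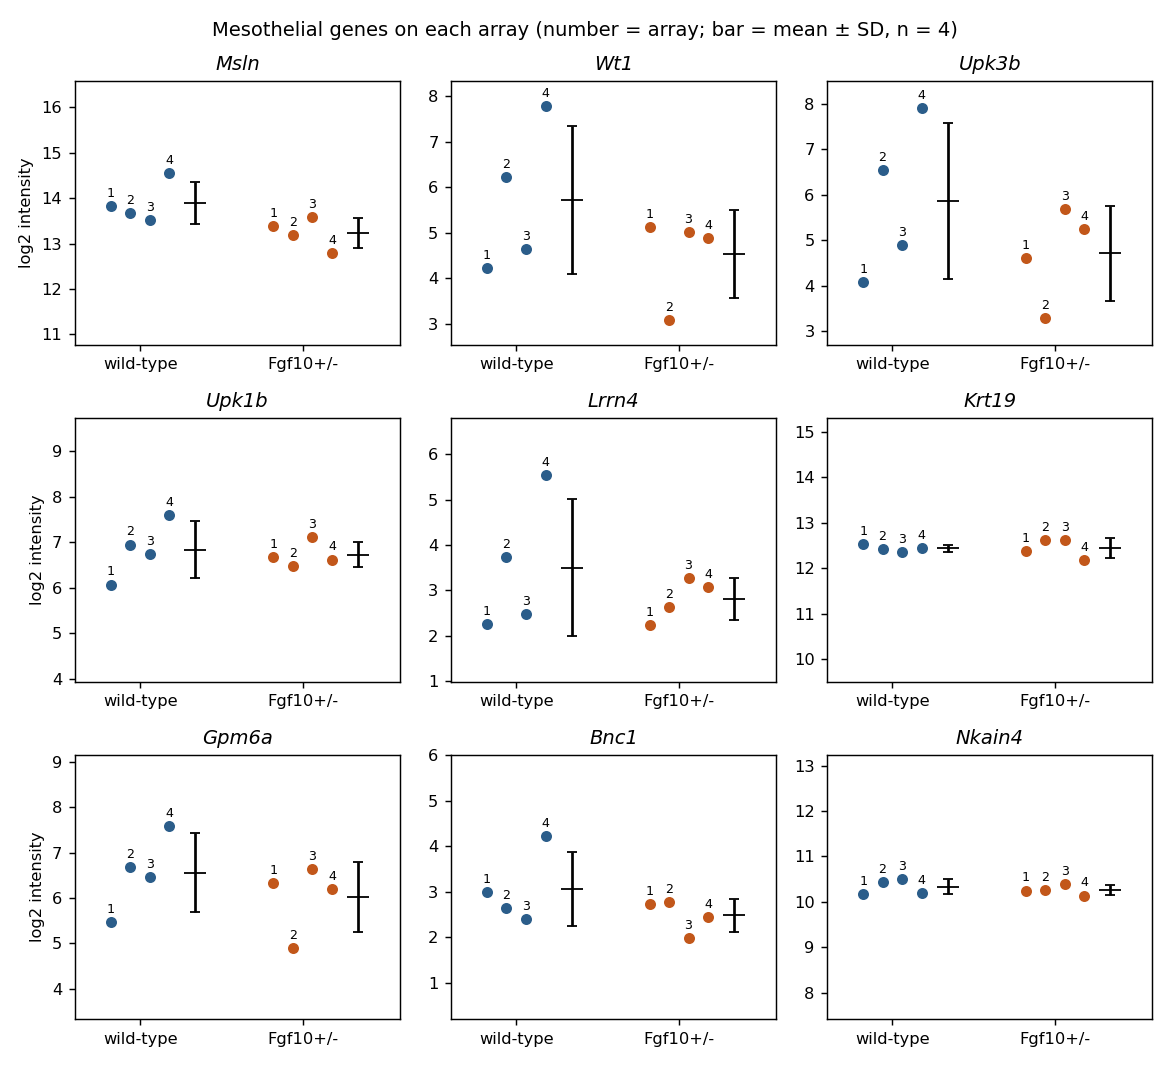
Log2 intensity of the 9 mesothelial markers (1 panel each) on the 4 Fgf10+/- and 4 wild-type arrays, with each array as a point, labelled by its number, and bars for the group mean ± SD (n = 4). Each panel spans the same number of log2 units, and none starts at a true zero. Wt1 spans 3.08 to 7.79 and is highest on wild-type array 4, while Krt19 spans 12.18 to 12.63 and Nkain4 10.14 to 10.51.

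Among the transcription factors, Wt1 encodes the zinc finger protein of mesothelium, kidney and gonad development. Wt1 read 5.13, 3.08, 5.02 and 4.89 on Fgf10+/- arrays 1 to 4 and 4.22, 6.22, 4.64 and 7.79 on wild-type arrays 1 to 4. The highest value was on wild-type array 4 and the lowest on Fgf10+/- array 2, while 3 Fgf10+/- arrays lay above wild-type arrays 1 and 3. The means were 4.53 ± 0.97 (SD, n = 4) and 5.72 ± 1.63 (SD, n = 4), a difference of -1.19 (SE 0.67, 95% interval -2.63 to 0.26, limma adjusted p = 0.556). The interval holds both no change and a fall of 2.63 on the log2 scale. Without wild-type array 4 the difference was -0.49. Over the 8 arrays Wt1 spanned 4.71 log2 units, which placed it 40th by range among the 17234 tested genes, whose median range was 0.81. Its lowest value, 3.08, is not known to lie above background, so no fold is given for the span.

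Bnc1, a zinc finger protein of keratinocytes and germ cells, was the dimmest member and had a mean of 2.77 against the filter's limit of 2.76. It passed through the wild-type group, where its mean was 3.06 against 2.48 in the Fgf10+/- group, and without wild-type array 4 its mean was 2.57. A gene that passes this way is likely to differ in that direction, so its difference is given as a description. Its values were 2.72, 2.77, 1.98 and 2.45 in the Fgf10+/- arrays and 3.00, 2.63, 2.40 and 4.22 in the wild-type arrays. Only wild-type array 4 stood clear of the rest. The difference was -0.58 (SE 0.45, 95% interval -1.55 to 0.38, limma adjusted p = 0.683), and without wild-type array 4 it was -0.20. Whether the values near 2 to 3 lay above background is unknown, because no detection call was used.

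Of the surface proteins, mesothelin (Msln) is the lipid-anchored glycoprotein that gives the tissue's best known marker and binds the mucin Muc16. Msln read 13.38, 13.18, 13.58 and 12.79 in the Fgf10+/- arrays and 13.82, 13.68, 13.51 and 14.56 in the wild-type arrays. Fgf10+/- array 3 and wild-type array 3 crossed, and otherwise the wild-type arrays were the higher ones. The means were 13.23 ± 0.34 (SD, n = 4) and 13.89 ± 0.46 (SD, n = 4). The difference of -0.66 (SE 0.20, 95% interval -1.09 to -0.23) had an unadjusted limma p of 0.00549 and an adjusted p of 0.184, and the two-sided exact permutation p was 0.0571, where 0.0286 is the smallest that 4 against 4 arrays allow. Without wild-type array 4 the difference was -0.44. Msln alone among the 9 had an interval wholly below 0, and it missed the threshold over all genes.

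Uroplakin 3b (Upk3b) and uroplakin 1b (Upk1b) belong to the membrane plaque proteins first known from the bladder lining, where the tetraspanin Upk1b pairs with a Upk3 protein. Upk3b read 4.61, 3.29, 5.68 and 5.25 in the Fgf10+/- arrays and 4.07, 6.54, 4.90 and 7.91 in the wild-type arrays. As for Wt1, wild-type arrays 4 and 2 were the highest and Fgf10+/- array 2 the lowest. The means were 4.71 ± 1.04 (SD, n = 4) and 5.86 ± 1.71 (SD, n = 4), a difference of -1.15 (SE 0.70, 95% interval -2.66 to 0.37, limma adjusted p = 0.587), and it was -0.46 without wild-type array 4. Its span over the arrays was 4.62 log2 units, which placed it 46th of all tested genes. As for Wt1, the lowest value, 3.29, is not known to lie above background.

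Upk1b varied less. It read 6.68, 6.47, 7.11 and 6.62 in the Fgf10+/- arrays and 6.07, 6.95, 6.75 and 7.59 in the wild-type arrays, so that the extremes, wild-type arrays 1 and 4, both belonged to the wild-type group. The difference was -0.12 (SE 0.28, 95% interval -0.72 to 0.47, limma adjusted p = 0.915), and it was 0.13 without wild-type array 4. Upk1b was the only member with more than 1 feature. All 10 of its features gave a negative difference, between -0.69 and -0.12, with a mean of -0.41, and all 10 were highest on wild-type array 4. They correlated with one another at 0.72 to 0.97 over the 8 arrays. The feature with the highest mean, used above, gave the smallest difference of the set.

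Lrrn4, a membrane protein with leucine-rich repeats, was dim on most arrays. It read 2.24, 2.63, 3.27 and 3.07 in the Fgf10+/- arrays and 2.26, 3.73, 2.48 and 5.54 in the wild-type arrays. The difference was -0.70 (SE 0.61, 95% interval -2.02 to 0.62, limma adjusted p = 0.737), and without wild-type array 4 it was -0.02. Gpm6a, a membrane glycoprotein of the proteolipid family best known from neurons, read 6.34, 4.89, 6.64 and 6.19 in the Fgf10+/- arrays and 5.47, 6.69, 6.47 and 7.59 in the wild-type arrays. Wild-type array 4 was again the highest and Fgf10+/- array 2 the lowest. The difference in Gpm6a was -0.54 (SE 0.43, 95% interval -1.46 to 0.38, limma adjusted p = 0.695), and without wild-type array 4 it was -0.20.

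Nkain4, which encodes a membrane protein that interacts with the sodium pump, hardly moved. It read 10.25, 10.26, 10.39 and 10.14 in the Fgf10+/- arrays and 10.18, 10.43, 10.51 and 10.20 in the wild-type arrays, with a difference of -0.07 (SE 0.10, 95% interval -0.29 to 0.14, limma adjusted p = 0.85). Krt19, the keratin of simple epithelia that mesothelium shares with airways, read 12.38, 12.63, 12.62 and 12.18 in the Fgf10+/- arrays and 12.53, 12.43, 12.35 and 12.44 in the wild-type arrays. Its difference was 0.01 (SE 0.10, 95% interval -0.20 to 0.23, limma adjusted p = 0.974), the only positive one. For these 2 genes the intervals lay within 0.29 log2 units of 0, so the data bound any difference closely, which they do not for Wt1, Upk3b or Lrrn4.

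**Figure D2:**
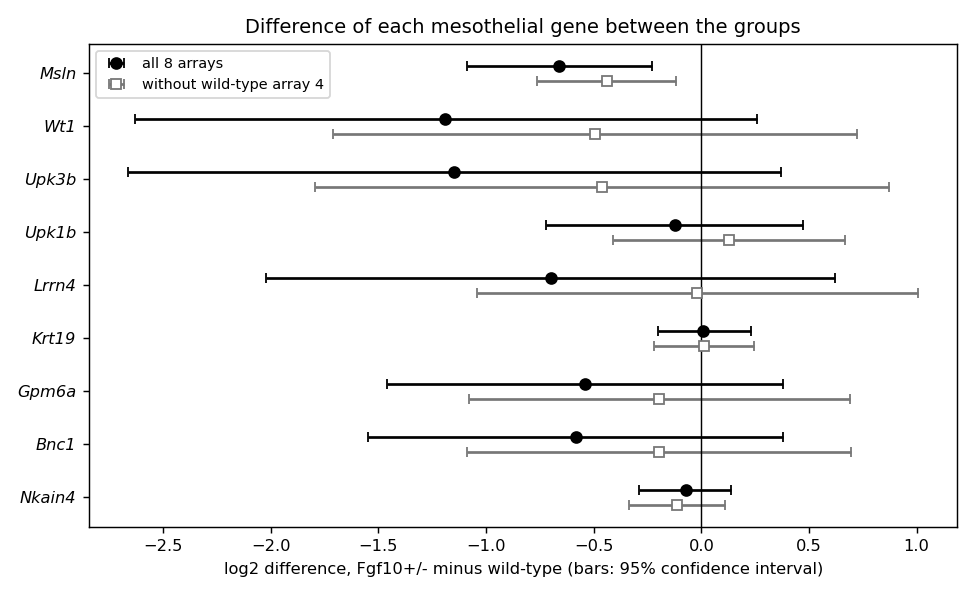
Difference in log2 intensity, Fgf10+/- minus wild-type, for each of the 9 markers from the limma fit, with bars for the 95% interval. Filled points use all 8 arrays and open squares leave out wild-type array 4, which moves the 7 markers highest on it upward by construction. With all arrays only the interval of Msln, from -1.09 to -0.23, lies wholly below 0, and none of the 9 passes the adjusted threshold. Bnc1 is drawn as a description, since it passed the filter only through the wild-type arrays.

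For most markers the arrays of 1 group spread more widely than the group means lay apart. Of the 9, 5 had a range over the 8 arrays among the widest 10% of all tested genes, which began at 2.02 log2 units: Wt1, Upk3b, Lrrn4, Gpm6a and Bnc1. Bnc1 is in that count though it passed the filter only through the wild-type arrays. Wild-type array 4 exceeded the mean of the other 3 wild-type arrays by 2.77 for Wt1 and 2.74 for Upk3b, or 6.8- and 6.69-fold. For Lrrn4 it was 2.72, over values of 2.26 to 3.73 that are not known to lie above background, so no fold is given. The excess was 1.55 for Bnc1, 1.38 for Gpm6a, 1.00 for Upk1b and 0.89 for Msln, and it was -0.17 for Nkain4. Among all tested genes, 16.9% were highest on that array. Wild-type array 2 came second for Wt1, Upk3b, Lrrn4 and Gpm6a, so both high arrays lay in the wild-type group, beside wild-type array 1, which was among the lowest for Upk3b and Lrrn4. The mean of the 9 centred values was -0.22, -0.72, 0.07 and -0.24 in the Fgf10+/- arrays and -0.45, 0.40, -0.19 and 1.35 in the wild-type arrays.

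Wild-type arrays 2 and 4 were also left out together, a choice made after the data were seen that leaves 2 wild-type arrays. Since they were the highest arrays for Wt1, Upk3b, Lrrn4 and Gpm6a, leaving them out moves those differences upward by construction, and no direction is read from the values. The differences were 0.10 for Wt1, 0.22 for Upk3b, 0.31 for Upk1b, 0.43 for Lrrn4 and 0.04 for Gpm6a. Msln stayed negative at -0.43 and Bnc1 at -0.22. The median was then 0.04, and 0 of 9 were called, where 0.0812% of all genes were.

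**Figure D3:**
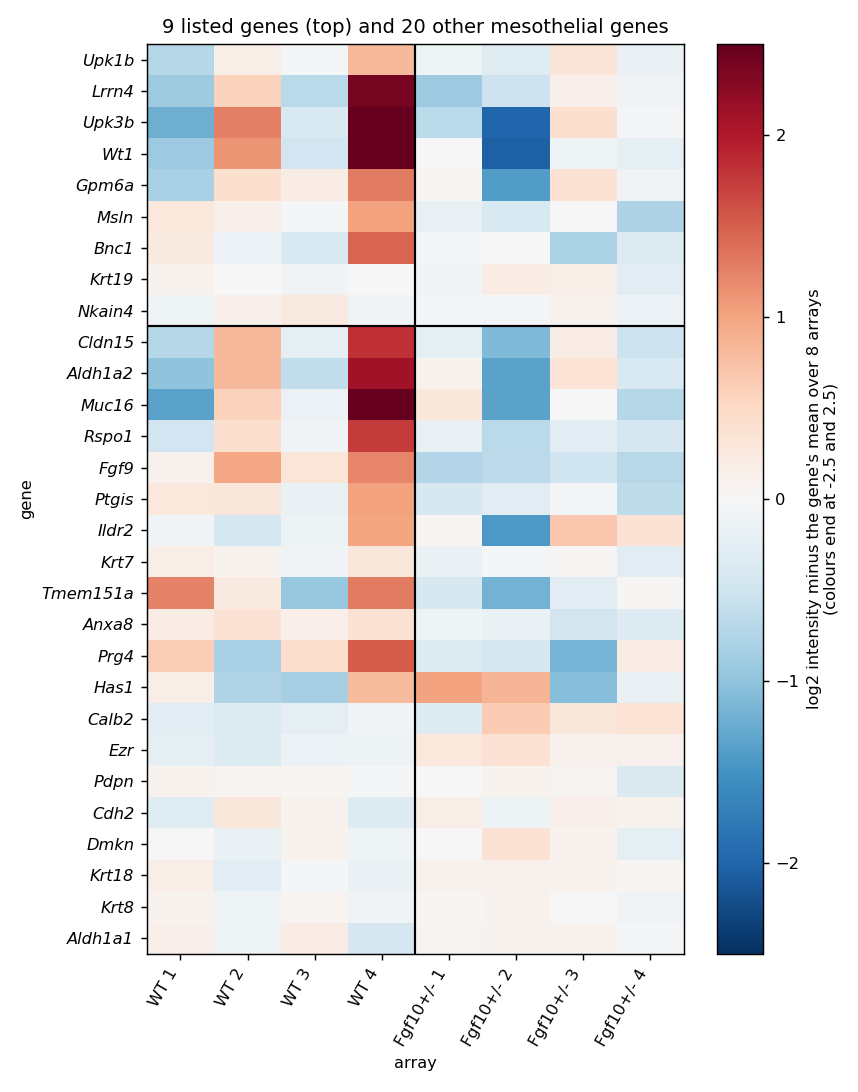
Centred log2 intensity (each gene minus its mean over the 8 arrays) of the markers and of further mesothelial genes, with arrays in columns and colour for the value. Wild-type array 4 is the highest array for 7 of the 9 markers, and Krt19 and Nkain4 stay near 0 on every array.

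Wt1, Upk3b, Upk1b, Lrrn4 and Gpm6a varied together across the arrays. Between Wt1 and Upk3b, Pearson's r was 0.97 (exact permutation p = 0.000372, Benjamini-Hochberg adjusted p = 0.0134 over the 36 pairs of markers) and Spearman's rho 0.86 (exact permutation p = 0.0107, adjusted p = 0.0771). Leaving out the 2 arrays farthest from the median of Wt1, Fgf10+/- array 2 and wild-type array 4, r was 0.88. For Upk3b and Gpm6a, r was 0.94 (exact permutation p = 0.00134, adjusted p = 0.0214), rho was 0.93 (exact permutation p = 0.00223, adjusted p = 0.0402) and r without the same arrays was 0.80. Upk3b and Lrrn4 had an r of 0.90 (exact permutation p = 0.00179, adjusted p = 0.0214) and a rho of 0.83 (exact permutation p = 0.0154, adjusted p = 0.0923), and r was 0.96 without them. Of the 36 pairs, 10 had an unadjusted p below 0.05 for r and 8 passed the adjustment, and all 10 joined genes of these 5. For rho, 7 pairs had an unadjusted p below 0.05 and 2 passed the adjustment, Upk3b with Gpm6a and Upk1b with Gpm6a.

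The 10 pairs among these 5 genes, a grouping made after their values were seen, had r between 0.75 and 0.97. The 2 arrays farthest from the median of the first gene of each pair, in the order of the marker list, were also left out. Without them r was 0.34 to 0.96, lowest for Lrrn4 with Gpm6a, where wild-type arrays 2 and 4 were left out. It was 0.61 for Upk1b with Lrrn4. The second gene of a pair played no part in that choice, so these values depend on the order of the genes. After each group's mean was subtracted, r was 0.72 to 0.96, and without wild-type array 4 it was 0.50 to 0.93. Msln correlated with the 5 at 0.56 to 0.71, but at -0.03 to 0.25 without wild-type array 4, so its relation rested on that sample. For Bnc1 the range was 0.35 to 0.67, and -0.83 to -0.30 without that array. The pairs with Krt19 or Nkain4 lay between -0.46 and 0.31, and none of them passed at an unadjusted p of 0.05.

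**Figure D4:**
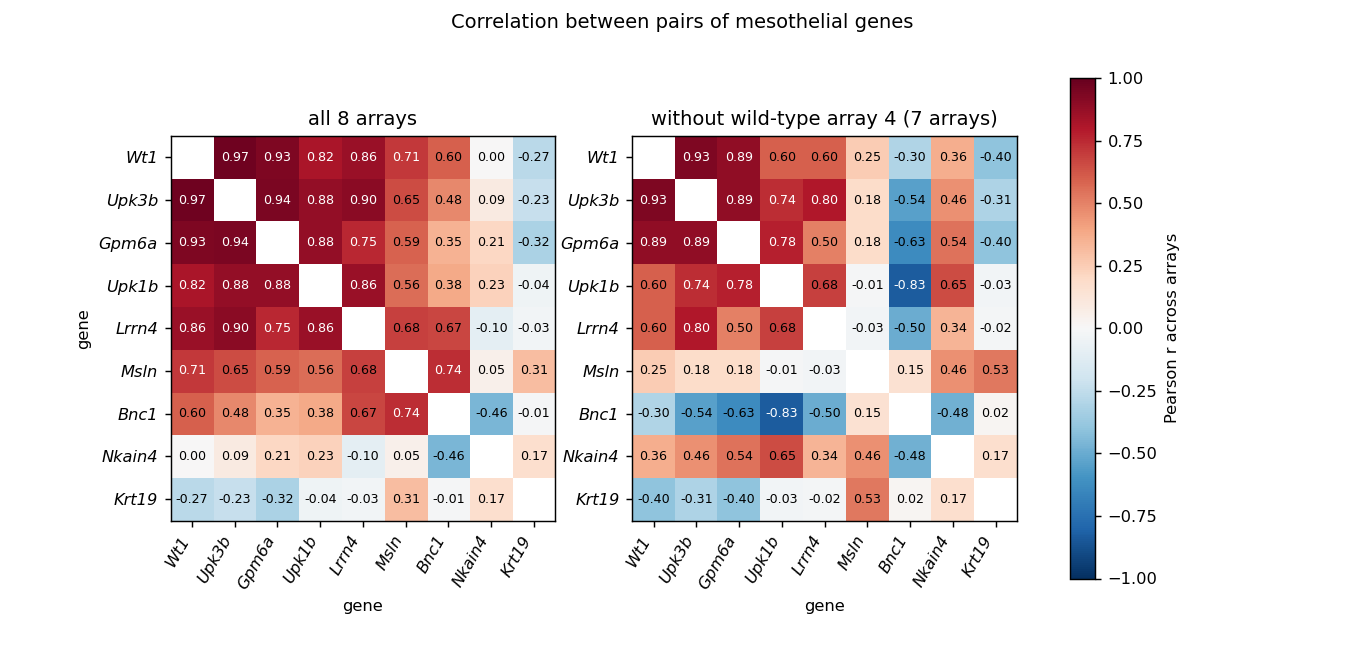
Pearson's r between each pair of the 9 markers over all 8 arrays (left) and over the 7 arrays without wild-type array 4 (right), with colour and number for r. Wt1 and Upk3b stay at 0.97 and 0.93, and the pairs of Bnc1 with Wt1, Upk3b, Upk1b, Lrrn4 and Gpm6a turn from 0.35 to 0.67 into -0.83 to -0.30.

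RefSeq windows were found for 4 of the 9 markers: Upk3b, Lrrn4, Gpm6a and Bnc1. For Upk3b, Lrrn4 and Gpm6a the 250 bases before the RefSeq start (assembly GRCm38.p6) are shown, read 5′ to 3′ on the strand of the gene. Capitals mark the letters GGAATG, the core bound by TEAD factors, the DNA-binding partners of YAP, on either strand. The window of Upk3b spans chr5:136038246-136038495 on the plus strand, that of Lrrn4 chr2:132880863-132881112 on the minus strand, and the first of the 2 windows of Gpm6a chr8:54779184-54779433 on the plus strand.
Upk3b: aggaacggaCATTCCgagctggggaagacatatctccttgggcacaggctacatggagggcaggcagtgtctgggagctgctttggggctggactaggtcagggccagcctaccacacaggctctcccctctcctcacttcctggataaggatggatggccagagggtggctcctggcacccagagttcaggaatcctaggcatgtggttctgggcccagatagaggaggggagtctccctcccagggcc
Lrrn4: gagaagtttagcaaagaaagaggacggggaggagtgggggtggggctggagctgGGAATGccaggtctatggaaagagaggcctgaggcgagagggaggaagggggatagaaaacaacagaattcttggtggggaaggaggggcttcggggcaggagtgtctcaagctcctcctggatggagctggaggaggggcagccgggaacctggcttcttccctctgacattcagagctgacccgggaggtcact
Gpm6a: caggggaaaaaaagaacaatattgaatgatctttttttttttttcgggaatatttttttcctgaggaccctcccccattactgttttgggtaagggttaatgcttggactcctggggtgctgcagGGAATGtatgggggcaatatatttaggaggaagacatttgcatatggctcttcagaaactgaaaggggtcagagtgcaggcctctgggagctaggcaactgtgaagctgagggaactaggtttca

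GGAATG occurred once in each of these 3 windows and not in that of Bnc1, nor in the second window of Gpm6a, thus in 3 of 5 windows and in 3 of 4 markers with a window. It lay 241 bases before the start of Upk3b, where it reads as CATTCC on the gene's strand, 196 bases before that of Lrrn4 and 125 before that of Gpm6a. Over all 32851 RefSeq windows of the same length, 12.6% held it, or 14.4% of 27025 genes. The letters GCGTGGG, the core read by WT1 and EGR zinc fingers, were in 0 of the 5 windows and in 4.3% of all windows. These are matches of letters in the searched windows only, on both strands and with no overlap between the 2 motifs.

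Further genes of the mesothelium were read from a list of 20, of which 19 were tested and the calretinin gene Calb2 was too dim. Their median difference was -0.23, with 12 negative and 7 positive. Fgf9, Anxa8 and Ezr were called by limma, 2 lower and 1 higher in the Fgf10+/- arrays, 3 of 19 against the 0.795% of all genes. The list was chosen with earlier results of these data known, so that comparison is a description and not support. Without wild-type array 4, 0 of the 19 were called, and the median was -0.12. Without limma's variance trend over intensity, 1 gene of all tested was called and 0 were called higher. The call of Ezr was therefore lost there, and Fgf9 and Anxa8 cannot both have kept theirs.

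Fgf9, a growth factor that mesothelium and epithelium of the embryonic lung send to the mesenchyme, read 5.68, 5.75, 5.91 and 5.72 in the Fgf10+/- arrays and 6.52, 7.37, 6.71 and 7.64 in the wild-type arrays. All 4 Fgf10+/- arrays lay below all 4 wild-type arrays. The difference was -1.29 (SE 0.25, limma adjusted p = 0.027). It was -1.10 without wild-type array 4, with an adjusted p of 0.0752, and the call held in 2 of the 8 fits that each left out 1 array. The Fgf10+/- arrays spanned 5.68 to 5.91 for Fgf9, where they spanned 3.08 to 5.13 for Wt1.

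Anxa8, an annexin that binds membranes, read 11.69, 11.63, 11.34 and 11.46 in the Fgf10+/- arrays and 11.98, 12.16, 11.92 and 12.15 in the wild-type arrays. The groups did not overlap, and the difference was -0.52 (SE 0.09, limma adjusted p = 0.0196). The call held in 4 of the 8 fits with 1 array left out and was lost without wild-type array 4 (adjusted p = 0.0591), while the difference stayed at -0.57 to -0.46 in those fits. Ezr encodes ezrin, which ties the membrane to actin in microvilli and is made by many epithelia. Ezr read 11.22, 11.32, 11.06 and 11.06 in the Fgf10+/- arrays and 10.74, 10.62, 10.80 and 10.83 in the wild-type arrays, with a difference of 0.42 (SE 0.09, limma adjusted p = 0.0461). That call held in 0 of the 8 fits, in which the difference was 0.37 to 0.45.

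Several of the further genes followed the markers from array to array, named here after their values were seen. Each gene was set against the mean of the 9 markers' centred and scaled values over the 8 arrays, with group means removed. That mean was 1.22 on wild-type array 4 and -0.86 to 0.61 on the others. All r values of the listed genes include that array, and none is given without it. Pearson's r was 0.97 for the tight junction gene Cldn15, 0.95 for Aldh1a2, which makes retinoic acid, 0.94 for the mucin Muc16, 0.93 for the WNT agonist Rspo1, 0.90 for Fgf9 and 0.82 for the prostacyclin synthase Ptgis. These 6 of 19 reached 0.8, as did 2.4% of the 17225 tested genes outside the markers. With the list chosen when earlier results of these data were known, the 2 shares are only a description. Muc16 read 7.16, 5.52, 6.88 and 6.15 in the Fgf10+/- arrays and 5.53, 7.45, 6.73 and 9.52 in the wild-type arrays. Aldh1a2 read 8.28, 6.87, 8.54 and 7.81 against 7.20, 9.02, 7.58 and 10.30. Both were highest on wild-type array 4 and next on wild-type array 2, and neither was called (differences of -0.88, limma adjusted p = 0.657, and -0.65, limma adjusted p = 0.72). In the opposite sense stood the keratins Krt8 (r = -0.59) and Krt18 (r = -0.58), shared with other epithelia, and Aldh1a1 (r = -0.81). Over all tested genes the 5 most like the markers were Pvr (0.988), Galnt5 (0.983), Tns1 (0.978), Gm13969 (0.974) and Ngb (0.970). Without wild-type array 4 their r was 0.98, 0.97, 0.95, 0.96 and 0.94. Pvr and Tns1 spanned only 0.65 and 0.49 log2 units over the 8 arrays. The lowest values of Galnt5 (2.10), Gm13969 (2.46) and Ngb (2.67) are not known to lie above background.

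Markers of neighbouring organs also stood out on the arrays where the mesothelial genes were high. Nppa, the atrial natriuretic peptide of the heart, read 11.25 on wild-type array 4 and 4.55 to 6.25 on the others, 31.9-fold over the next highest. Of 12 cardiac genes, 4 were highest on that array, and the mean of their centred values was 0.72 there, -0.58 on wild-type array 1 and -0.11 to 0.09 elsewhere. Most of that excess was Nppa: over the other 11 genes the mean was 0.29 on wild-type array 4 and 0.20 on wild-type array 3. The summed level of all 12 cardiac genes, Nppa included, was 14.49 to 14.73 on the log2 scale in the Fgf10+/- arrays and 13.98 to 15.03 in the wild-type arrays. The plasma protein genes Ahsg and Serpina1a, made by liver, read 8.59 and 7.38 on wild-type array 2, where their ranges elsewhere were 2.80 to 5.58 and 2.11 to 3.49. Liver genes were highest on wild-type array 2 in 7 of 8, and their summed level there was 9.93 on the log2 scale against 7.75 to 8.31 elsewhere, while albumin (Alb) read 5.06 there. The part of heart or liver tissue in the levels of the mesothelial genes was not tested.

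**Figure D5:**
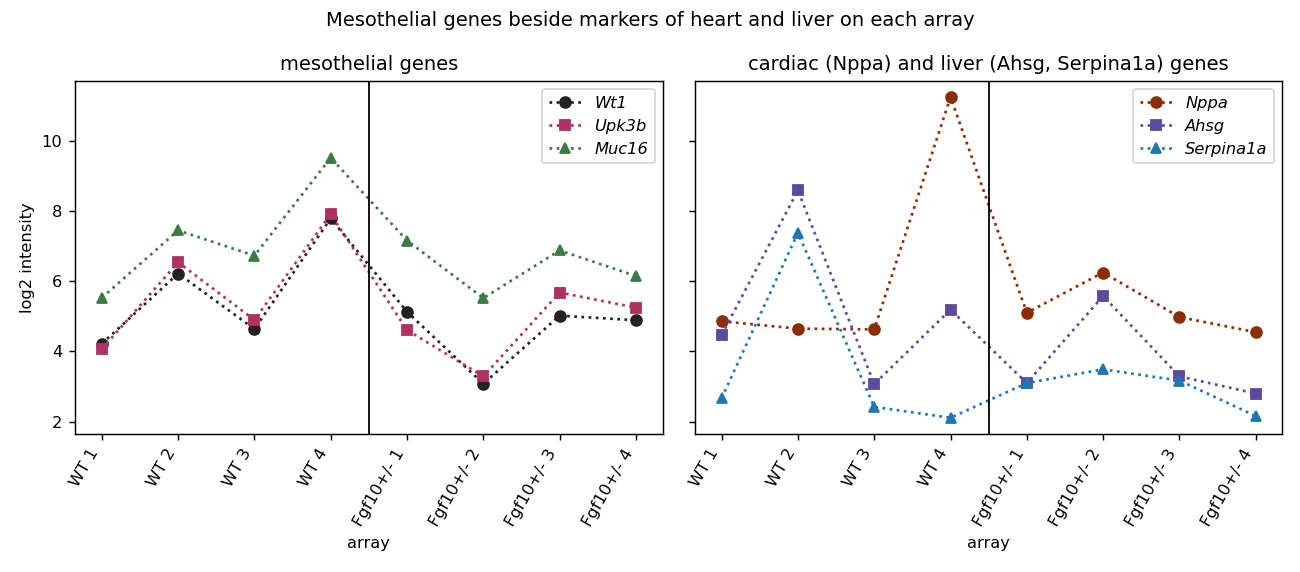
Log2 intensity of Wt1, Upk3b and Muc16 (left) and of the heart gene Nppa and the liver genes Ahsg and Serpina1a (right) on each array, joined by dotted lines to guide the eye only. Nppa reaches 11.25 on wild-type array 4 and Ahsg 8.59 on wild-type array 2, the arrays with the highest and the next highest Wt1.

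Lists of other cell types were read beside the 0.795% of all genes called, a share at which lists this short would hold about 0 calls, so their counts of calls show little. Of 12 alveolar type 1 genes 0 were called, with a median difference of -0.06, and their mean centred value stayed between -0.09 and 0.08 on all 8 arrays. Airway epithelial genes, among which Krt19 would be counted by its other source, gave 0 of 12 called and a median of 0.18, with 11 positive. At an unadjusted limma p below 0.05, 6 of the 12 airway genes and 3 of the 12 alveolar type 1 genes passed, against 11.2% of all genes. Both lists were chosen with earlier results of these data known, so these shares are a description. The mean centred value of the airway genes was lowest on wild-type array 4 (-0.26) and highest on Fgf10+/- array 2 (0.27), the reverse of the markers. Squamous and basal epithelium (0 of 10 called, median 0.17), neurons and glia (0 of 8, -0.18), brown fat (0 of 5, 0.18), skeletal muscle (0 of 10, 0.08), thymocytes (0 of 7, -0.05) and liver (0 of 7, -0.66) had no called gene. In the cardiac list the myosin Myh7 was called higher, at 0.76 (SE 0.12, limma adjusted p = 0.01), 1 of 12. That call held in 8 of the 8 fits with 1 array left out. It was lost without limma's variance trend over intensity, where 0 genes were called higher.

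Relatives of the markers in their protein families, such as other keratins, uroplakins and EGR factors, numbered 17 tested, with 0 called by limma, 2 at an unadjusted p below 0.05 and a median of 0.07. Both counts lay near the shares over all genes, 0.795% and 11.2%. Of these 2, the keratin Krt23 was nearest to the threshold (0.60, SE 0.14, limma adjusted p = 0.0689), and the immediate early factor Egr1 differed by 0.95 (limma adjusted p = 0.181). Of the relatives 8 were negative and 9 positive, where 8 of the 9 markers were negative, or 7 of 8 without Bnc1.

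The arrays also fell into 2 kinds by Xist, the transcript of the inactive X chromosome, which read 6.29 to 6.85 on 5 arrays and 1.93 to 2.63 on 3. Among the 5 with high Xist (2 Fgf10+/- and 3 wild-type), the difference was -1.07 for Wt1, -1.24 for Upk3b and -0.94 for Msln. Among the 3 with low Xist (2 Fgf10+/- and 1 wild-type) it was -0.59, -0.42 and -0.13. The remaining markers did not all follow these. In the high and the low kind, Lrrn4 differed by -1.19 and 0.47, Upk1b by -0.22 and 0.04 and Krt19 by -0.19 and 0.28. Gpm6a differed by -0.32 and -0.70, Bnc1 by -0.70 and -0.02 and Nkain4 by -0.08 and -0.18. With 1 wild-type array of the low kind, no change of size or direction between the kinds can be read. Wild-type arrays 2 and 4 were both of the high kind.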

How the data were processed

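Lung RNA of 8 samples was measured on 1-colour Agilent arrays. The deposited table holds normalized log2 intensities for 62976 features, and limma is named without version in the submitters' processing notes. The background step is not given in the sources, and detection calls are not part of the table. Arrays have no read depth, so their number limits the precision.

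The platform annotation named 31465 features, of which 29050 were matched by accession to RefSeq genes (GRCm38.p6), with 2933 symbols updated. Features with a missing value (189) or a mean below the 30th percentile (2.76) were left out, and each gene was read from its brightest feature, which gave 17234 genes. Genes were tested, two-sided, with limma 3.58.1 in R 4.3.3 (lmFit, eBayes with a variance trend), with Benjamini-Hochberg adjustment over all 17234, called below 0.05. The code was tested on simulated data. Correlations used exact permutation over all 40320 orders of the arrays. Python 3.11.15 with scipy 1.17.1 was used.

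The members and gene lists were chosen with earlier results of these data known. Named were the 9 markers, called genes of the lists, up to 4 further genes per list with the smallest p, defining markers, and the 5 genes most like the markers; others are said to have been chosen after their values were seen. Alternatives covered the filter, the value per gene, the normalization, the variance prior, array weights, Xist, a replicate block and left-out arrays, and summaries without Bnc1 or Nppa were added after the values were seen.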

Additional observations from a re-analysis of the deposited data

Results flagged for a closer look

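Of 118 groups of 4 arrays examined, 6 held 1 array whose gap to the nearest of the other 3, as a share of the group's range, passed Dixon's 95% critical value, where chance gives about 1 in 20. Wt1 on Fgf10+/- array 2 read 3.08, below the 4.89 to 5.13 of the other Fgf10+/- arrays. Aldh1a1 on Fgf10+/- array 4 read 14.60, against 14.70 to 14.71 on the other 3. Among the wild-type arrays, Nppa read 11.25 on array 4 and Serpina1a 7.38 on array 2. The mean centred value of the liver genes was 1.75 on wild-type array 2, and that of the alveolar type 1 genes was -0.07 on wild-type array 1, against 0.07 to 0.08 on the other 3.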

How the results depend on the processing

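None of the 9 markers was called under any of the 18 alternatives, where Lrrn4 and Bnc1 were too dim to be tested with the 50th percentile filter, and the lowest adjusted p was 0.111 (Msln without wild-type array 3, limma). Of 162 values of single markers, 150 of 160 tested ones kept their sign and side of the threshold, 2 were untested and 10 changed sign. Krt19 was -0.02 with Xist as a covariate and -0.05 to 0.10 with 1 array left out, and Upk1b was -0.38 to 0.13 with 1 array left out. With wild-type arrays 2 and 4 left out, chosen after seeing the data, Wt1 was 0.10, Upk3b 0.22, Upk1b 0.31, Lrrn4 0.43 and Gpm6a 0.04. The cause was not tested. The number of genes called, 137 in the reported fit, was 1 without the variance trend, 80 with Xist, 14 without those arrays and 34 to 173 with 1 array left out. After each gene's group mean was subtracted, same-numbered arrays of the 2 groups correlated at -0.064 to 0.067, so the replicate numbers were not taken as pairs. With the replicate block, 116 genes and 0 markers were called, the markers' median stayed at -0.58, and Ezr was not called (adjusted p = 0.0965, limma). Dim markers (Bnc1, Lrrn4) are limited by an unknown signal over background, and so are the lowest values of Wt1 and Upk3b.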

Other observations

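Single genes of the squamous and thymocyte lists were also high on wild-type array 4, picked after their values were seen. The mean centred value of both lists, with these genes included, was highest there. It was 0.36 for squamous and basal epithelium and 0.21 for thymocytes, and at most 0.11 on any other array for each list. The genes of the lists were mixed. Krt14 (5.74), Krt6a (3.90), Trp63 (9.91) and Cd8b1 (3.38) were also highest on that array. The remaining genes were highest on other arrays: Krt1 was lowest there (2.28), and Rag1 (2.25) and Dntt (2.16) were not high. Whether such tissue was in the sample was not tested. Krt13, a keratin of squamous epithelium such as that of the oesophagus, read 5.53 there and 2.06 to 3.36 on the others. Rag2, which rearranges antigen receptor genes in thymocytes, read 5.83 there and 2.33 to 3.32 on the others. The fast skeletal muscle troponin gene Tnnc2 was highest on Fgf10+/- array 1, at 7.03, and lowest on Fgf10+/- array 3, at 3.34. Of the skeletal muscle list, Myl1 (6.80), Tnni2 (8.65), Myh8 (8.18) and Myh3 (3.89) were also highest on Fgf10+/- array 1, and the remaining genes on other arrays. The mean centred value of the list was 0.61 there and -0.30 to 0.13 elsewhere.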
